A study of Mus musculus with 6 samples.

Results

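Chemokines are small secreted proteins that direct the movement of leukocytes through receptors on the target cell, and fibroblasts are one of their sources in injured tissue. The chemokine ligand genes were taken here as every gene of the deposited table whose symbol consists of Ccl, Cxcl, Cx3cl or Xcl, a number and at most 1 further letter. This rule, which uses names only, found 34 of 24408 genes. The CXC chemokines Cxcl1, Cxcl2, Cxcl3 and Cxcl5 attract mainly neutrophils through the receptor Cxcr2, Ccl2 and Ccl7 attract monocytes through Ccr2, Ccl11 (eotaxin) attracts eosinophils through Ccr3, and Cxcl9 and Cxcl10 attract activated T cells and NK cells through Cxcr3. Many of the inflammatory members are induced by the transcription factor NF-kappaB after interleukin-1 or tumour necrosis factor, whereas Cxcl12 and Cxcl14 are made constitutively by many stromal cells.

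The cells were mouse lung fibroblasts purified from donors that had received no treatment and that carried a green fluorescent collagen reporter. The donors of the Untreated, Day 2, Day 4 and Day 7 libraries were of the strain Col-GFP (C57BL/6), and those of the Acta2 low and Acta2 high libraries carried the reporter Acta2-mKO1 as well, on the same background. Untreated cells were profiled without transfer. For the other 5 libraries the cells were placed in the airways of wild type mice 7 days after those hosts had received bleomycin, a drug that injures the lung. They were sorted back from the host lungs 2, 4 or 7 days later, or, for the Acta2 libraries, by low or high reporter signal on a day that the labels do not give. The labels do not say how many mice were pooled or how old they were, and a sort on a collagen reporter collects only donor cells in which that reporter is on. Each group was 1 library, so the differences below have no replicate check, and every interval is a 95% interval of the tag counts that covers counting error only. In such bulk samples a lower level can come from fewer cells that use a gene or from less RNA per cell, which cannot be told apart.

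Expression was measured by 3' SAGE, which counts 1 short tag per transcript, and is given in CPM, tags per 1000000 assigned tags. Transcript length therefore does not enter the level, but amplification may differ between genes. The libraries held 4448065 to 6175334 tags, and 1 tag was worth 0.162 to 0.225 CPM. The 6 fibroblast genes listed were detected in every library and summed to 3777 to 19408 CPM. The chemokines can also be made by leukocytes, and the markers listed for these were near 0. The 10 macrophage and monocyte genes summed to 1.20 to 2.43 CPM over the 6 libraries, with Cd68 and Ptprc at 0 in all of them. A gene without tags may have had no position that this assay can read. Cx3cr1, a receptor of monocytes and NK cells that was not listed, stood at 0.366 CPM in Untreated and 11.7 in Day 4. Its cell source was not tested. The 5 neutrophil genes in the table summed to at most 1.18 CPM, the 5 T and NK cell genes to at most 0.183 CPM and the 4 B cell genes to at most 1.30 CPM. The 5 endothelial genes summed to at most 2.56 CPM and the 4 mesothelial genes to at most 7.31 CPM, both highest in Untreated. The 6 epithelial genes summed to 4.39 to 37.4 CPM, mostly from Sftpc and Scgb1a1, and were highest in Day 7 and Untreated. The 4 platelet genes summed to 5.67 to 17.8 CPM, nearly all from Itga2b. The part of the epithelial and platelet tags in the results was not tested.

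Chemokine transcripts were most abundant 2 days after transfer, and the members that gave most of them differed from those in the untreated cells. All 34 genes together took 1439.7 CPM in Untreated, 6175 in Day 2, 2640.2 in Day 4 and 997.02 in Day 7, against 3156 in the Acta2 low and 2084 in the Acta2 high sort. In Untreated, 60.6% of these tags came from Cxcl14 alone. At Day 2 Cxcl14 gave 8.42% of them, while Cxcl1 gave 44.5%, Ccl7 23.4% and Ccl2 14.2%. The 5 neutrophil attractants gave 25.03% of the chemokine tags in Untreated and 50.8% in Day 2, and the monocyte attractants 5.68% and 37.6%. The monocyte group held Ccl2, Ccl7 and Ccl12 only. Cxcl14, which is also described as attracting monocytes, was counted apart and its share fell. The rise therefore holds for this group and not for every member that attracts monocytes. In Day 4, Acta2 low and Acta2 high the monocyte attractants gave 47.4%, 50.8% and 44.04%, the larger share in each of these libraries. In Day 7 their share was 21.6% and that of the neutrophil attractants 48.9%.

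**Figure D1:**
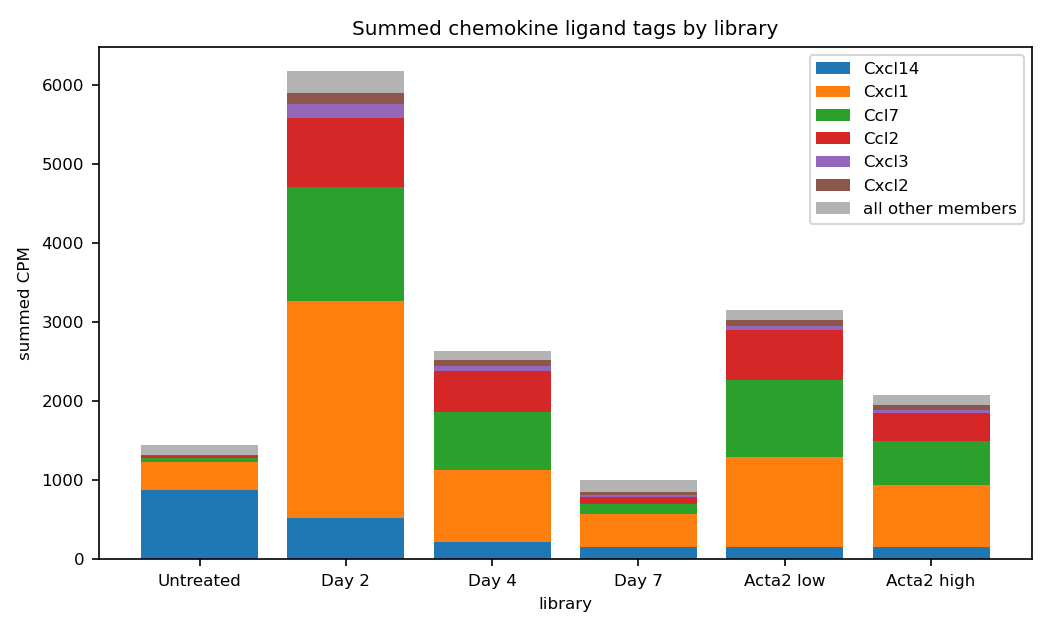
Summed CPM of the 34 chemokine ligand genes in each of the 6 libraries (bars from 0), split into 6 genes and all others. The Day 2 bar is the tallest at 6175 CPM and is mostly Cxcl1, Ccl7 and Ccl2, whereas the Untreated bar of 1439.7 CPM is mostly Cxcl14.

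Of the 34 genes, 12 reached 10 CPM in at least 1 library, and these are described one by one. Another 7 peaked between 1 and 10 CPM, 10 had tags but stayed under 1 CPM, and 5 had no tag in any library. For comparisons, a gene counted as measured when its mean over both libraries was at least 10 CPM, and as higher or lower when log2(CPM + 1) differed by at least 2, a 4-fold change on this scale. The median measured gene was itself shifted by 0.66 log2 in Day 2, 0.31 in Day 4 and 0.39 in Day 7 against Untreated, by -0.35 in Day 4 against Day 2, by 0.07 in Day 7 against Day 4 and by -0.14 in Acta2 high against Acta2 low. Folds of single genes below are therefore CPM ratios divided by the fold of that shift, called relative to the median gene. Counts use the log2 differences as they stand.

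At Day 2, 7 of 12 measured chemokine genes were at least 4-fold higher than in Untreated and 0 were lower, where 13.6% of all 4256 measured genes were higher and 4.7% lower. The 7 were Cxcl1, Cxcl2, Cxcl3, Cxcl5, Cxcl10, Ccl2 and Ccl7. Of these, 4 were under 10 CPM in Untreated and were measured only because Day 2 was high, so they had to differ. Among the 8 chemokine genes at 10 CPM or more in Untreated, a filter chosen after seeing the data, 3 were higher (Cxcl1, Ccl2 and Ccl7), where 9.55% of all such genes were higher and 5.67% lower. The median log2 difference of these 8 was 0.99, against 0.45 over all such genes. At Day 4, 4 of 10 measured members were higher (Cxcl2, Cxcl3, Ccl2 and Ccl7) and 0 lower, against 9.99% and 5.11% of all genes. Of those 4, the 2 at 10 CPM or more in Untreated were Ccl2 and Ccl7, where 6.05% of all such genes were higher and 5.82% lower. The median of the same 8 members was -0.02 at Day 4, against 0.15 over all such genes. At Day 7, 1 of 9 was higher (Cxcl2) and 1 lower (Cxcl14), against 4.95% and 3.31%. With at least 10 CPM required in Untreated, 0 members were higher and 1 lower at Day 7, against 2.39% and 3.74% of all such genes, and the medians were 0.41 and 0.29. The 3 comparisons share the Untreated library.

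**Figure D2:**
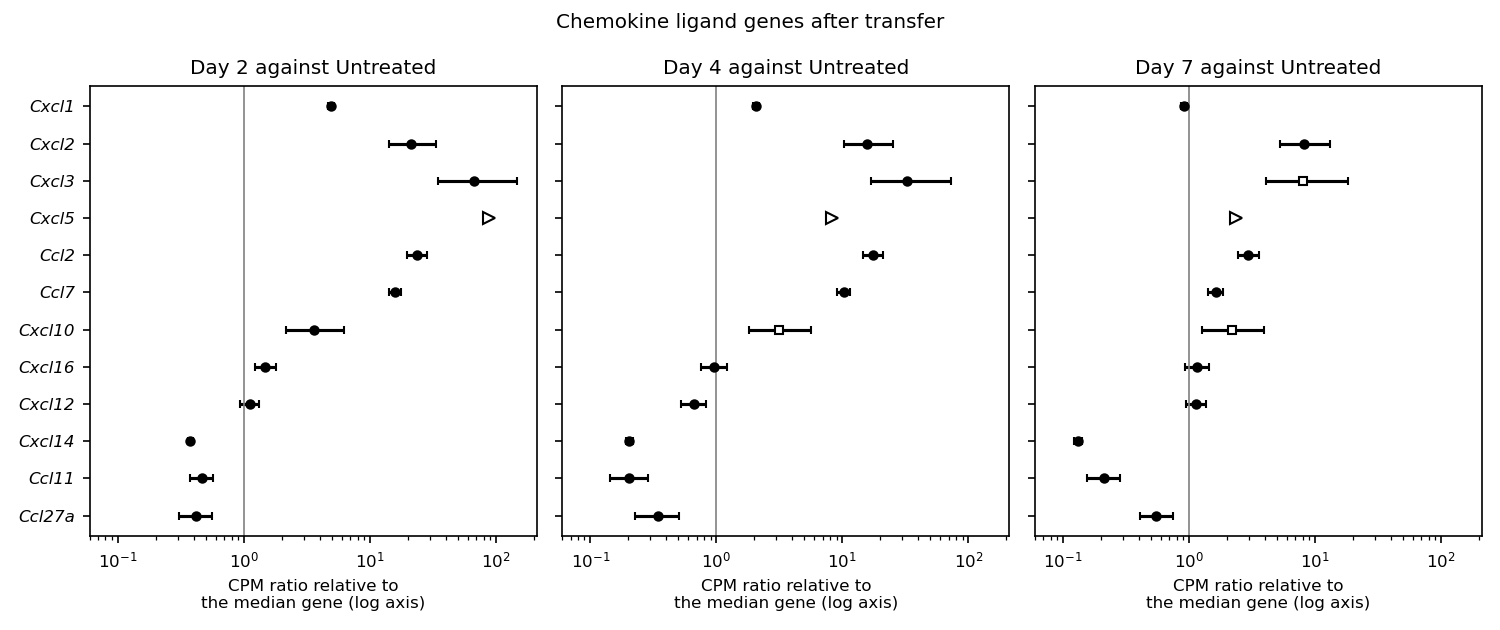
CPM ratio of each of 12 chemokine genes to Untreated at Day 2, Day 4 and Day 7, relative to the median gene (log axis, line at 1); bars are 95% counting intervals, filled circles are measured genes, open squares are genes under the filter and triangles are lower bounds. At Day 2 Cxcl3 stands at 66.5 and Ccl2 at 23.6, while Cxcl14 at 0.378, Ccl11 and Ccl27a lie left of the line on every day.

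Every one of the 4 neutrophil attractants detected above 10 CPM was highest in Day 2 and lower in every other library. Cxcl1, the most abundant, stood at 353.9 CPM in Untreated, 2747 in Day 2, 903.1 in Day 4 and 423.9 in Day 7, then 1143 in the Acta2 low and 784.9 in the Acta2 high sort. It was therefore already expressed by the untreated cells, and its Day 7 level was 15.4% of that of Day 2. Set against the median gene, it was 4.92-fold higher at Day 2 (4.70 to 5.16) and its ratio was 2.06 at Day 4 (1.95 to 2.18). At Day 7 its ratio was 0.917 (0.864 to 0.974), although its CPM was above that of Untreated. The log2 difference between these libraries was 0.26 as deposited, -0.04 under median-ratio scaling and 0.0074 without the 100 most abundant genes.

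Cxcl2 stood at 4.204 CPM in Untreated, 141.2 in Day 2, 82.1 in Day 4, 44.8 in Day 7, then 72.3 in the Acta2 low and 55.9 in the Acta2 high sort. It kept 31.7% of its Day 2 level at Day 7, where it was 8.15-fold higher than in Untreated (5.32 to 13.1), after 21.3-fold at Day 2. Cxcl3 stood at 1.65 CPM in Untreated, 172.6 in Day 2, 66.8 in Day 4, 17.4 in Day 7, then 57.4 in the Acta2 low and 40.7 in the Acta2 high sort. It was 66.5-fold higher at Day 2 (34.9 to 146), 32.8-fold at Day 4 (17.02 to 72.3) and 8.11-fold at Day 7 (4.11 to 18.2), on 9 tags in Untreated. Its mean over Untreated and Day 7 was under the filter, so it is not counted at Day 7.

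Cxcl5 had the shortest course of the group. It had no tag in Untreated, which allows up to 0.548 CPM at the floor of 3 tags, and stood at 75.6 CPM in Day 2, 5.62 in Day 4, 1.71 in Day 7, then 4.32 in the Acta2 low and 3.19 in the Acta2 high sort. From Day 2 to Day 4 its fall beyond the shift of the median gene was 10.6-fold (7.07 to 16.5). Cxcl5 was the single one of 12 measured chemokine genes past 4-fold on that step, where 0.258% of all genes were lower and 0.305% higher. At 5.62 CPM in Day 4, it was measured on this step only because Day 2 was high. Measured against the floor in Untreated, Day 2 was at least 87.5-fold higher, and the bound for Day 7, on 10 tags, was 2.39-fold.

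Ratios between members within a library do not depend on how libraries are scaled, and they show that these genes did not change in step. Cxcl1 had 84.2 tags for each tag of Cxcl2 in Untreated (55.9 to 133), 19.5 in Day 2 (18.2 to 20.8), 11.01 in Day 4 (9.88 to 12.3) and 9.47 in Day 7 (8.33 to 10.8). The Cxcl2 to Cxcl3 ratio went from 2.56 in Untreated (1.14 to 6.28) to 0.818 in Day 2 (0.747 to 0.895), 1.23 in Day 4 (1.05 to 1.44) and 2.57 in Day 7 (2.04 to 3.26). The order of Cxcl2 and Cxcl3 thus turned at Day 2, where Cxcl3 was the more abundant, and turned back. The intervals of the Cxcl1 to Cxcl2 ratio did not overlap between Untreated, Day 2 and Day 4, but those of Day 4 and Day 7 did.

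The genes of this group lie together on chromosome 5. In the RefSeq annotation of GRCm38.p6, used for names and order only, Cxcl5, the platelet genes Ppbp and Pf4, Cxcl3, Cxcl15, Cxcl1 and Cxcl2 follow each other among the coding genes. Not all of them had a high Day 2 level. Cxcl15 (lungkine), a neutrophil attractant known from lung epithelium, lies between Cxcl3 and Cxcl1 and had 0 to 3 tags in each library, at most 0.548 CPM. Ppbp and Pf4, which encode platelet chemokines, reached at most 0.162 and 0.810 CPM. The promoters of Cxcl1, Cxcl2 and Cxcl3 are shown because these 3 neighbours rose together at Day 2, and that of Cxcl10 as a further gene called higher. That of Cxcl14 is shown as a gene with less CPM at Day 2 than in Untreated, by -0.75 log2 and so within 4-fold. These promoters were thus picked by Day 2 values. Each runs 5′ to 3′ on the gene's strand from 250 bases before to 50 bases after the annotated start, from RefSeq on GRCm38.p6, and capitals mark matches to the NF-kappaB consensus (kappaB site) on either strand.

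Cxcl1 promoter, chr5:90890995-90891294, plus strand: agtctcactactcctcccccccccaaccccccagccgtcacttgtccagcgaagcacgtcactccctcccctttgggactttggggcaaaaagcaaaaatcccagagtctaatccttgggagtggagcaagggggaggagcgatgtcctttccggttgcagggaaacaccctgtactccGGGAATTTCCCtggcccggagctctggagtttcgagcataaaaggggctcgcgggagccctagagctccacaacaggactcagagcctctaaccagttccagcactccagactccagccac
Cxcl2 promoter, chr5:90903649-90903948, plus strand: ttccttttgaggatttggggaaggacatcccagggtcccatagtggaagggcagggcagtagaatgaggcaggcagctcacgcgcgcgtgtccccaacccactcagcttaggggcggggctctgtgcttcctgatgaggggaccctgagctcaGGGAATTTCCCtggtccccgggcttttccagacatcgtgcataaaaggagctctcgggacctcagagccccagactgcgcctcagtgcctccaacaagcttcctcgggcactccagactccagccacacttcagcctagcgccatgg
Cxcl3 promoter, chr5:90785851-90786150, plus strand: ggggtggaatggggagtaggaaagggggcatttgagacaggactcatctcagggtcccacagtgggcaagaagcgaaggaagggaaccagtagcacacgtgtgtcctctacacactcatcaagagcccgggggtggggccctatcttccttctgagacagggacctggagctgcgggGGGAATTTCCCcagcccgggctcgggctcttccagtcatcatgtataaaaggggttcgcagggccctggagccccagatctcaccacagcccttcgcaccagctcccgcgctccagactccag
Cxcl10 promoter, chr5:92348840-92349139, minus strand: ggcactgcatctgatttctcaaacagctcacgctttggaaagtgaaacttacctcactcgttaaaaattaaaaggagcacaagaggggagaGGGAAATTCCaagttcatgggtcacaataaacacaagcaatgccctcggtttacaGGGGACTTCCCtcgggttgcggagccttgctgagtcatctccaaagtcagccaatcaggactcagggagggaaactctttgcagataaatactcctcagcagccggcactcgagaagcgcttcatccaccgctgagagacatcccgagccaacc
Cxcl14 promoter, chr13:56296502-56296801, minus strand: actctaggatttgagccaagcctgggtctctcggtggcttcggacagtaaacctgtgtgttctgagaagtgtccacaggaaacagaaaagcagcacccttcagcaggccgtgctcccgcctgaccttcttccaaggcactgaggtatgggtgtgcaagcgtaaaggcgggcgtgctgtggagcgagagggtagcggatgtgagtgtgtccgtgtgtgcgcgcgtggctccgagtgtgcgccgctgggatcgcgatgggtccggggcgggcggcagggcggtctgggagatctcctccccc

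In these windows Cxcl1, Cxcl2 and Cxcl3 each held 1 kappaB site, and the overlapping matches of both strands covered the same run, GGGAATTTCCC, in all 3. Counted from the start, it began at position -71 in Cxcl1, -97 in Cxcl2 and -73 in Cxcl3. That run, singled out after it was seen, was present on either strand in 14 of 32851 promoters (0.0426%). Cxcl10 held 2 kappaB sites and Cxcl14 held 0. Of all promoters of this length, 8.46% held at least 1 kappaB site and 0.521% at least 2. The table had promoters for 23 of the 34 chemokine genes, 29 in all, and 8 of these held a site. The other members with a site were Ccl1, Ccl9 and Ccl20, all at 4.59 CPM or less in every library, and 1 of the 3 promoters of Ccl27a. Of the 12 genes that reached 10 CPM, only 7 had a promoter here. None was available for Ccl2, Ccl7, Cxcl5, Ccl11 or Cxcl16, so these were not searched. The 2 other motifs searched on both strands were an interferon-type motif (GAAA, any 2 bases, GAAA), found in Cxcl10 and Cxcl14 and in 3.44% of all promoters, and the TATA box TATAAA, found in Cxcl3 but not in the other promoters shown and in 13.6% of all. No kappaB match in the promoters shown overlapped either of the 2 other motifs. A match is a description of the letters and not a measured binding site.

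**Figure D3:**
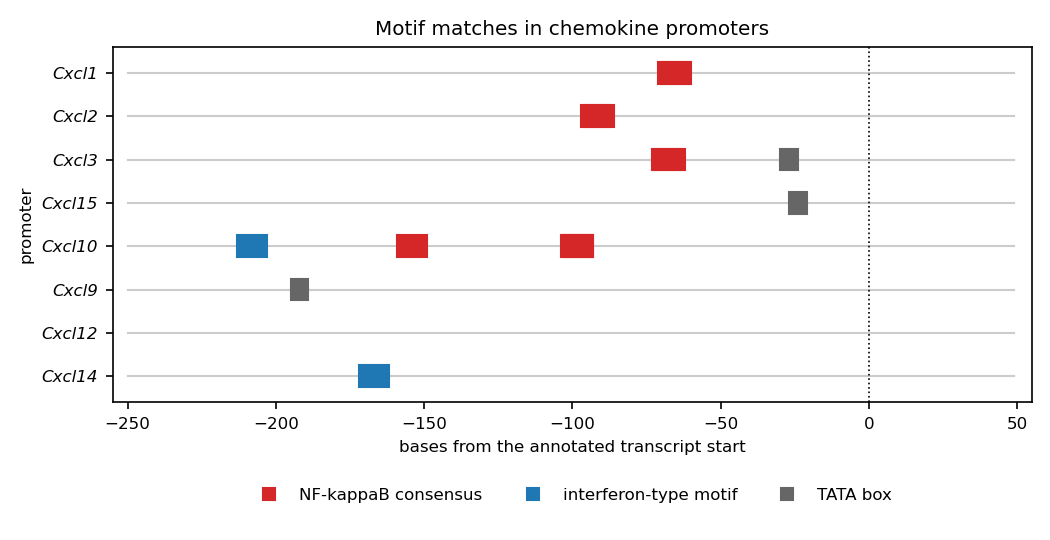
Positions of motif matches in 8 chemokine promoters, in bases from the annotated transcript start (dotted line), from 250 bases before to 50 after; red blocks are the NF-kappaB consensus, blue the interferon-type motif and grey the TATA box. The kappaB blocks of Cxcl1, Cxcl2 and Cxcl3 lie between positions -97 and -61, Cxcl10 has 2, and Cxcl15, Cxcl9, Cxcl12 and Cxcl14 have none. The 8 are a selection from the 23 members with a promoter. Ccl1, Ccl9, Ccl20 and Ccl27a also held a site, were not among the genes called higher at Day 2, and are not drawn.

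The monocyte attractants Ccl2 and Ccl7 also peaked at Day 2, and passed 4-fold lower from Day 4 to Day 7. Ccl2 (MCP-1) stood at 23.6 CPM in Untreated, 876.6 in Day 2, 513.5 in Day 4, 91.2 in Day 7, then 626.4 in the Acta2 low and 352.6 in the Acta2 high sort. At Day 4 it was at 58.6% of its Day 2 level, against 51.2% for Ccl7, 58.1% for Cxcl2, 38.7% for Cxcl3, 32.9% for Cxcl1 and 7.43% for Cxcl5. Ccl7 (MCP-3) stood at 58.1 CPM in Untreated, 1443 in Day 2, 738.5 in Day 4, 124.03 in Day 7, then 975.5 in the Acta2 low and 565.1 in the Acta2 high sort. From Day 4 to Day 7, Ccl2 was 5.90-fold lower (5.37 to 6.50) and Ccl7 6.24-fold lower (5.76 to 6.77). They were the 2 of 10 measured chemokine genes past 4-fold on this step, where 2.23% of all 4132 genes were lower and 2.23% higher, and the median of the 10 was -0.70 log2 against 0.07.

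Against Untreated, Ccl2 was 23.6-fold higher at Day 2 (19.8 to 28.3), 17.6-fold at Day 4 (14.7 to 21.1) and 2.96-fold at Day 7 (2.44 to 3.62). Ccl7 was 15.7-fold, 10.3-fold and 1.63-fold higher (1.43 to 1.87) on those days. The Ccl7 to Ccl2 ratio was 2.47 in Untreated (2.00 to 3.05) and 1.65 (1.59 to 1.70), 1.44 (1.36 to 1.52) and 1.36 (1.21 to 1.52) in Day 2, Day 4 and Day 7, so Ccl7 remained the more abundant of the pair. The Cxcl1 to Ccl2 ratio was 15.01 in Untreated, 3.13 in Day 2, 1.76 in Day 4 and 4.65 in Day 7. Of the time course, Day 4 was thus the library in which Cxcl1 and Ccl2 were nearest to each other. Ccl12, the third gene of the monocyte group in the table, had no tag in any library, though a gene without tags may have had no position that this assay can read.

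On chromosome 11, Ccl2, Ccl7, Ccl11 and Ccl12 follow each other in the same annotation, and Ccl11, unlike Ccl2 and Ccl7, was highest before transfer. Ccl11 stood at 37.3 CPM in Untreated, 27.2 in Day 2, 9.44 in Day 4, 10.3 in Day 7, then 5.30 in the Acta2 low and 8.19 in the Acta2 high sort. Every transferred library was below Untreated. Relative to the median gene it was 2.16-fold lower at Day 2 (1.75 to 2.67), 4.89-fold at Day 4 (3.50 to 6.99) and 4.75-fold at Day 7 (3.55 to 6.45). As its log2 difference stood it missed 4-fold at Day 4 and Day 7, and it passed under median-ratio scaling and without the 100 most abundant genes. The other eosinophil attractants, Ccl24 and Ccl26, had at most 0.899 CPM and no tag, respectively.

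Cxcl14, a chemokine of epithelial and stromal cells that is described as attracting monocytes and dendritic cell precursors, was the most abundant member before transfer and lower at each later day of the course. It stood at 873.01 CPM in Untreated, 519.6 in Day 2, 221 in Day 4, 151.5 in Day 7, then 151.1 in the Acta2 low and 149.4 in the Acta2 high sort. Beyond the shift of the median gene it was 2.65-fold lower at Day 2 (2.53 to 2.77), 4.90-fold at Day 4 (4.57 to 5.25) and 7.52-fold at Day 7 (7.00 to 8.09). At Day 4 its log2 difference of -1.98 was just inside the 4-fold line, which it passed under the other scalings. For each tag of Cxcl1 there were 2.47 tags of Cxcl14 in Untreated (2.34 to 2.60) and 0.189 in Day 2 (0.182 to 0.197). Ccl27a, which attracts skin-homing T cells through Ccr10, was also highest in Untreated, at 19.01 CPM against 12.5, 8.09 and 13.7 in Day 2, Day 4 and Day 7 and 6.09 and 6.99 in Acta2 low and Acta2 high. Ccl27a overlaps Il11ra1 in the annotation and has a near copy in Ccl27b, so its tags could belong in part to either. If the assay anchors at CATG, a last 21-base tag of its transcripts was found in Gm20878, and none in Ccl27b or Il11ra1.

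**Figure D4:**
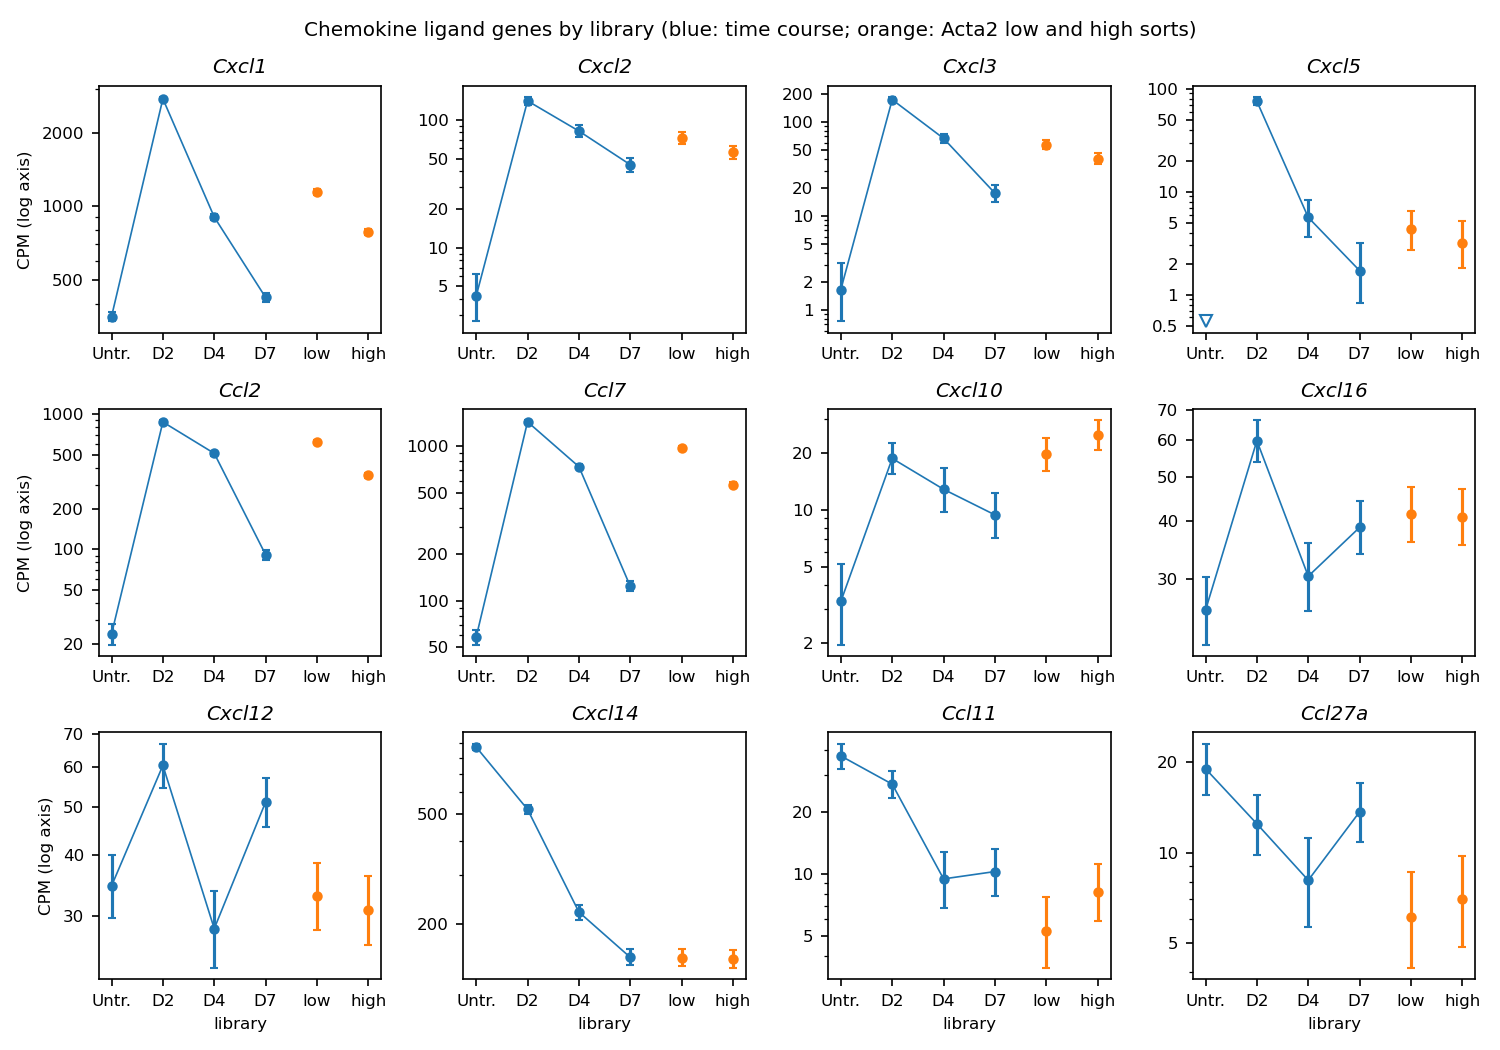
CPM of the 12 chemokine genes that reached 10 CPM, each in a panel with its own log axis, in the 4 libraries of the time course (blue, joined) and the Acta2 low and high libraries (orange); bars are 95% Poisson intervals and the open triangle marks the floor of 3 tags where Cxcl5 had none. Day 2 is the highest point of the time course in 9 panels and Untreated in 3 (Cxcl14, Ccl11 and Ccl27a).

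In all, 9 of the 12 genes had their highest level of the time course in Day 2, 3 in Untreated and 0 in Day 4 or Day 7. The share of all genes with a Day 2 maximum was not computed. As CPM stood, 71.7% of all measured genes were above Untreated in Day 2, and 25.3% were above Day 2 in Day 4. Higher Day 2 levels were thus common among all genes. Cxcl2, Cxcl3, Cxcl5 and Cxcl10 were under 10 CPM in Untreated and are among the 12 only through libraries where they were high. For each of the 12 the highest library was set against the next, a pair picked by its values. These ratios are of CPM as deposited, not divided by the median shift. Their counting intervals all lay above 1, with a lower bound of 1.05 for Cxcl10. For Cxcl12 that lower bound was 1.02, and without the 100 most abundant genes its highest library was Day 7. Cxcl12, which holds and recruits progenitors and lymphocytes through Cxcr4, stood at 34.5 CPM in Untreated, 60.6 in Day 2, 28.3 in Day 4, 51.1 in Day 7, then 33.0 in the Acta2 low and 30.9 in the Acta2 high sort. Its ratio to Untreated relative to the median gene was 1.11 at Day 2 (0.931 to 1.33), 0.662 at Day 4 (0.524 to 0.833) and 1.13 at Day 7 (0.940 to 1.37). On this scale its Day 2 ratio was not above that of Day 7. Cxcl12 stayed within 4-fold of Untreated on each day.

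Cxcl16, a membrane-bound chemokine that binds Cxcr6 on T cells, stood at 25.6 CPM in Untreated, 59.9 in Day 2, 30.4 in Day 4, 38.8 in Day 7, then 41.4 in the Acta2 low and 40.9 in the Acta2 high sort, with a ratio to Untreated of 1.48 at Day 2 after division by the median shift (1.22 to 1.82). Cxcl10, an interferon-inducible ligand of Cxcr3, stood at 3.29 CPM in Untreated, 18.6 in Day 2, 12.8 in Day 4, 9.40 in Day 7, then 19.6 in the Acta2 low and 24.8 in the Acta2 high sort. It was the one member with 10 CPM or more whose highest value over all 6 libraries lay in an Acta2 library. Its log2 difference at Day 2 passed 4-fold, but relative to the median gene it was 3.59-fold higher (2.17 to 6.27), and it lost the 4-fold call under median-ratio scaling, without the 100 most abundant genes and with a pseudocount of 5 CPM. In the annotation Cxcl10 overlaps Art3 and Cxcl16 overlaps Zmynd15, and whether the counting used strand is not given in the sources used here. Cxcl9, the related interferon-induced ligand, reached 2.43 CPM in Day 2, and Cxcl11, a pseudogene in this annotation, had no tag.

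Among the members under 10 CPM, some were highest at another time than Day 2. Cx3cl1 (fractalkine), which attracts monocytes and NK cells through Cx3cr1, stood at 1.10 CPM in Untreated, 2.27 in Day 2, 2.25 in Day 4, 9.40 in Day 7, then 3.73 in the Acta2 low and 4.19 in the Acta2 high sort, on 6, 14, 10, 55, 19 and 21 tags. It was the one chemokine gene above 1 CPM that was highest in Day 7. The sum of the epithelial genes was highest in that library too, at 37.4 CPM against 31.4 in Untreated. Of its main genes, Scgb1a1 was higher in Day 7 (22.0 CPM against 10.4 in Untreated) and Sftpc was lower (14.9 against 20.7). The part of the epithelial genes in the Cx3cl1 level was not tested. Cxcl13, a B cell attractant, had 1 tag in Untreated and stood at 3.40 CPM in Day 2, 6.74 in Day 4, 3.59 in Day 7, then 7.66 in the Acta2 low and 6.19 in the Acta2 high sort.

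Ccl20, which attracts cells with Ccr6, had 0 tags in Untreated, 1 in Day 2, 11 in Day 4, 2 in Day 7, then 13 in the Acta2 low and 23 in the Acta2 high sort. Ccl5 (RANTES), an attractant of T cells and monocytes, had 29 tags in Day 2 and at most 8 in any other library. Ccl25, whose row carries a non-coding RefSeq transcript, reached 6.32 CPM in Day 2, and Ccl27b was at most 2.19 CPM. The macrophage-type chemokines Ccl3, Ccl4, Ccl6 and Ccl9 had at most 0.683 CPM in any library, and Ccl1, Ccl17, Ccl28 and Xcl1 at most 0.589 CPM. Ccl12, Ccl22, Ccl26, Cxcl11 and Cxcl17 were those without a tag.

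Transferred cells sorted for high Acta2 signal carried fewer transcripts of Ccl2, Ccl7, Cxcl1 and Cxcl3 than those sorted for low signal, by less than 4-fold. Acta2 itself, the smooth muscle actin gene that the sort was aimed at, stood at 450.7 CPM in Acta2 high and 276.8 in Acta2 low. Of 9 measured chemokine genes 0 passed 4-fold either way, where 0.0% of all 3998 genes were higher and 0.15% lower, and their median log2 difference was -0.36 against -0.14 over all genes. Relative to the median gene, Ccl2 was 1.61-fold lower in Acta2 high (1.52 to 1.71), Ccl7 1.56-fold (1.49 to 1.64), Cxcl1 1.32-fold (1.27 to 1.37) and Cxcl3 1.28-fold (1.06 to 1.53). For Cxcl2, at 1.17-fold lower, the interval reached 1.00. Cxcl10 lay on the other side with a ratio of 1.39 (1.06 to 1.83). The intervals of Cxcl12, Cxcl14 and Cxcl16 included 1, and their CPM differences turned sign with the scaling.

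**Figure D5:**
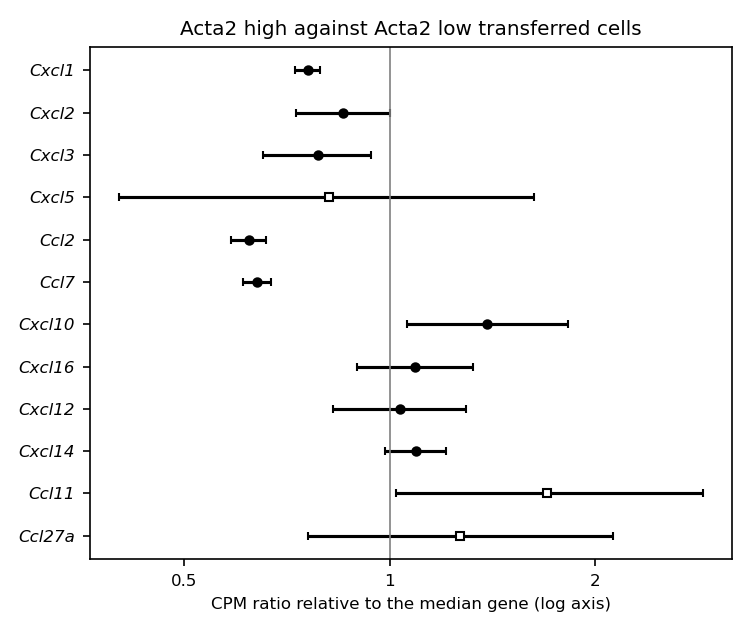
CPM ratio of 12 chemokine genes in Acta2 high over Acta2 low, relative to the median gene (log axis, line at 1), with 95% counting intervals; filled circles are measured genes and open squares are genes under the filter. Ccl2 at 0.621 and Ccl7 at 0.639 lie farthest left, and Cxcl10 at 1.39 lies right of the line.

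Most receptors for these ligands had few tags or none. Of 19 conventional or related receptor genes in the table, 12 had no tag in any library, Ccr2 and Cxcr3 among them. Only Ccrl2 and Cx3cr1 reached 10 CPM. Ccrl2, which binds chemerin, stood at 17.3 to 38.2 CPM over the 6 libraries, highest in Untreated. Cx3cr1, the fractalkine receptor, stood at 0.366 CPM in Untreated, 6.48 in Day 2, 11.7 in Day 4, 1.88 in Day 7, then 9.43 in the Acta2 low and 11.4 in the Acta2 high sort. Its highest libraries were those in which its ligand Cx3cl1 was at most 4.19 CPM, and Cx3cl1 was highest in Day 7, where the receptor was low. Cxcr2 had at most 2.01 CPM, in Untreated, and Cxcr4 at most 0.854.

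Of 4 atypical receptors, which bind chemokines without conventional signalling, 1 was measured. Cxcr7, the scavenging receptor of Cxcl12, stood at 24.5 CPM in Untreated, 8.74 in Day 2, 6.52 in Day 4, 1.37 in Day 7, then 2.75 in the Acta2 low and 2.60 in the Acta2 high sort. It was at least 4-fold lower at Day 7 and within 4-fold at Day 2 and Day 4, as its log2 differences stood. At Day 7, 3.31% of all measured genes were lower. The median gene was shifted upward on each of these days, so the falls of Cxcr7 relative to it were larger. Cxcr7 reached 10 CPM in Untreated only and was measured through that library. Of 14 genes that control chemokine induction and decay, 11 were measured at Day 2, 0 were at least 4-fold higher and 2 lower, against 13.6% and 4.7% of all measured genes. Those 2 were Zfp36, which destabilises cytokine and chemokine mRNAs, at 2942 CPM in Day 2 against 24493 in Untreated, and the interferon-gamma receptor gene Ifngr1, at 54.1 against 644 CPM. At Day 4, 3 of 11 were lower, Nfkbiz being the third, against 5.11% of all genes. At Day 7, 1 of 10 was lower, Ifngr1, against 3.31%.

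Zfp36 was highest in Untreated and next in Day 7, at 6740.0 CPM, and lowest in Day 4, at 1232. Nfkb1, an NF-kappaB subunit gene, stood at 36.6 CPM in Untreated, 74.3 in Day 2, 25.4 in Day 4, 30.6 in Day 7, then 45.2 in the Acta2 low and 26.0 in the Acta2 high sort. Relb, another subunit, stood at 15.7, 53.9, 18.7, 21.4, 22.6 and 17.4 CPM in the same order of libraries. Both were highest in Day 2 and within 4-fold of Untreated, with ratios relative to the median gene of 1.29 (1.09 to 1.53) and 2.18 (1.71 to 2.79). The subunit gene Nfkb2 was also highest in Day 2, at 15.9 CPM (98 tags) against 3.29 CPM (18 tags) in Untreated. In proportion it rose more than Nfkb1 or Relb, but its mean over these libraries was under the filter of 10 CPM. Other measured NF-kappaB genes of the list lay nearer to the median gene or below it. At Day 2 the ratio of the subunit gene Rela was 1.14 (0.932 to 1.41), that of the inhibitor gene Nfkbia 0.976 (0.937 to 1.02) and that of the inhibitor gene Tnfaip3 0.808 (0.581 to 1.13). Nfkbiz, a nuclear regulator of NF-kappaB, had a ratio of 0.218 (0.173 to 0.272) and was highest in Untreated. In Acta2 high against Acta2 low, Nfkb1 was 1.58-fold lower. Whether these genes have a part in the chemokine levels was not tested.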

How the data were processed

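The authors deposited 1 table of CPM values for 24408 gene symbols in 6 libraries. Per the labels' protocols, libraries were made by 3' SAGE from PCR-amplified cDNA, and BWA 0.6.2 and the mouse build mm9 were used per the submitters' processing notes. The rule that assigned tags to genes is not given in the sources used here. Each CPM column sums to 1000000, and 100% of values equalled a whole number of tags within 0.001 once divided by the lowest nonzero value of the library. The tags recovered in this way gave depths of 4448065 to 6175334. PCR copies were not marked, so intervals and the floor of 3 tags cover counting error only.

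Groups came from the sample titles, with 1 library each, so no test between conditions was possible. Differences of log2(CPM + 1) were taken over genes with a mean of at least 10 CPM in the compared libraries and called at 2, a 4-fold rule. Ratios carry exact conditional (Clopper-Pearson) 95% intervals, and single values exact Poisson intervals. Members with 10 CPM in any library were described singly. The members and lists were chosen with earlier results of these data known. The 4-fold rule was tested on simulated tags with counting error only. Variation between animals or libraries was not part of the simulation, so it does not make up for the lack of replicates. Under the assumption of a CATG anchor, the last 21-base tag of 11 of the 12 genes was shared with no other gene of the GENCODE transcripts; Ccl27a shared 1 with Gm20878. Motifs were searched in RefSeq promoters (GRCm38.p6). The alternatives were pseudocounts of 5 and 0.1 CPM, no filter, median-ratio scaling, leaving out the 100 most abundant genes, a 2-fold threshold and an added exact two-sided binomial test of the tags with Benjamini-Hochberg adjustment at 0.05, which compares 2 libraries and not the conditions. A filter on the reference library was added after seeing the data. Work was done in Python 3.11.15 with numpy 2.4.6, pandas 2.3.3, scipy 1.17.1 and matplotlib 3.10.9.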

Additional observations from a re-analysis of the deposited data

How the results depend on the processing

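No paired analysis was possible because each group was 1 library. Counts of chemokine genes past 4-fold moved by more than 1.5 times in these cases. With at least 10 CPM also required in the reference library, the higher genes were 3 at Day 2, 2 at Day 4 and 0 at Day 7 against Untreated. The lower genes at Day 4 were 2 under median-ratio scaling, 2 without the 100 most abundant genes and 3 at a 2-fold threshold. The lower genes at Day 7 were 2 under each of those 3 settings. The higher genes at Day 7 were 3 without a filter, 3 without the 100 most abundant genes and 3 at 2-fold. At 2-fold, 6 genes were lower in Day 4 against Day 2 and 4 in Day 7 against Day 4. Without the 100 most abundant genes, 1 gene (Cxcl12) was highest in Day 7. Pseudocounts of 5 and 0.1 CPM and the binomial test, which called 3493 of 4256 genes for Day 2 against Untreated, left every count within 1.5 times. No called chemokine gene changed direction under any of these settings. Scaling moved the all-gene balance, which as deposited was 578 higher and 200 lower at Day 2, 393 and 201 at Day 4, 199 and 133 at Day 7, and 13 and 11 for Day 4 against Day 2: at Day 2, median-ratio scaling gave 348 higher and 284 lower, against 446 and 522 without the 100 most abundant genes; at Day 4, 347 and 254, and 438 and 457; at Day 7, 151 and 165, and 276 and 231. For Day 4 against Day 2 the pairs were 20 and 4, and 34 and 12.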
